A study of Mus musculus with 99 samples.

Results

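PCGF6 marks a variant form of the Polycomb repressive complex PRC1, usually called PRC1.6, and its binding was mapped by ChIP-seq in mouse embryonic stem cells (ESCs) of 4 conditions. These 4 libraries were picked by their antibody label out of 99 samples, and their deposited peak lists hold 7882 PCGF6 peaks in Parental −OHT, 4767 in Parental +OHT, 7357 in RING1B WT +OHT and 2377 in RING1B I53S +OHT cells. Every line carries ROSA26::creERT2, lacks RING1A (Ring1a −/−) and is Ring1b fl/fl, so that 4-hydroxytamoxifen (OHT, 0.5 µM for 72 h; +OHT) deletes endogenous Ring1b, while −OHT cells received ethanol. The Parental line has no other source of RING1B. The RING1B WT and RING1B I53S lines each express a tagged transgene from a plasmid vector and were picked as clones after drug selection; I53S is a missense change of the RING domain, and no untreated PCGF6 library of these transgenic lines was analysed here. All cells were grown with serum, LIF and inhibitors of GSK3β and MEK. RNA-seq of the same 3 lines, with and without OHT, gave 2 replicates per group in 12 libraries of 8140106 to 12743460 counted reads.

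PRC1 complexes share a RING1A or RING1B subunit, which puts ubiquitin on a lysine of histone H2A (H2AK119ub1), and are told apart by which PCGF protein they hold. Canonical PRC1 holds PCGF2 or PCGF4 with a CBX protein that reads H3K27me3, the mark of PRC2, whereas PRC1.6 holds PCGF6 with RYBP or YAF2, L3MBTL2, the HDAC1 and HDAC2 deacetylases, WDR5, and 2 pairs of DNA-binding proteins, MGA with MAX and E2F6 with a DP protein. MGA and MAX bind the E-box, E2F6 and DP bind E2F sites, and in ESCs the complex is best known for keeping germline and meiosis genes silent.

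Each condition had 1 PCGF6 library, so differences between peak lists have no replicate check and no test. Intervals on shares of peaks are 95% Wilson intervals that cover counting over peaks only, and the read depth of the ChIP libraries is unknown. The RING1B lists held 5073, 690, 3941 and 1287 peaks in the order Parental −OHT, Parental +OHT, RING1B WT +OHT and RING1B I53S +OHT. Of the 690 RING1B peaks left in Parental +OHT cells 82.6% lay on chromosome 11, as did 66.8% of those in RING1B I53S +OHT cells, against 7.47% of protein-coding genes. PCGF6 peaks showed a smaller excess on that chromosome, 14.8%, 18.2%, 13.7% and 20.3% in the same order, and its part in the results was not tested beyond leaving the chromosome out. Rnf2, which encodes RING1B, gave 198.3 and 257.1 counts scaled to library size (CPM) in Parental −OHT and 144.0 and 166.8 in Parental +OHT cells. Counts over the whole gene do not separate its deleted part, or a transgene, from the rest, so they do not check the deletion. The 11 pluripotency markers together gave 5962 to 7696 CPM in the 6 −OHT libraries.

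Windows from the centres of PCGF6 promoter peaks are shown as examples of the letters that the DNA-binding subunits are known to read. They were chosen after the motifs had been seen, from the genes named by the rule in the methods, and are given on the plus strand of GRCm38 with bases of annotated UTRs and noncoding exons left off. Capitals mark an E-box (CACGTG, the same on both strands) or an E2F site (GCGGGAA or GCGCGAA on either strand). The highest peak of the Parental −OHT list lay within 2.5 kb of the start of Fbxo46, an F-box gene. Its 63 bases at chr7:19118369-19118431 lie outside annotated genes, 1428 bp from the nearest start of Fbxo46. The peak centre lay 1577 bp from that start. Annotated exon bases outside Fbxo46 were left off there, so the peak cannot be given to Fbxo46 alone. Ddx4, the germ cell RNA helicase, is shown at chr13:112652048-112652247. Sycp2, a protein of the meiotic chromosome axis, is shown at chr2:178407199-178407398. Stk31, a gene of the male germ line, is shown at chr6:49395414-49395603, outside its annotated body. Ccne2, cyclin E2 of the G1 to S transition, is shown upstream of its gene at chr4:11190919-11191118. Odc1, the ornithine decarboxylase gene and a classical target of MYC and MAX, is shown at chr12:17545169-17545349 in its intron, with 2 E-boxes. Hoxd13, a homeobox gene of limb and tail patterning, has neither motif in the 200 bases of its first coding exon at chr2:74668559-74668758. These windows do not stand for their lists. The germline genes Zcwpw1, Tex19.1, Meioc and Tdrkh held neither motif in the central 300 bases, and the developmental regulators Hoxd11 and Cdx2 held an E-box. Either motif was found at 12 of 29 germline and 6 of 31 developmental promoters with a peak in Parental −OHT cells.
Fbxo46: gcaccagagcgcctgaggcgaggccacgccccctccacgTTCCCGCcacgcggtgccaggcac
Ddx4: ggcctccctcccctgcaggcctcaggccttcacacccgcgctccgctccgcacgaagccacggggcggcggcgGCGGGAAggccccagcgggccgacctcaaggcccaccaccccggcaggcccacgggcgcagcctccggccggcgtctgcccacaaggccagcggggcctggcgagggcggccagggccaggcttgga
Sycp2: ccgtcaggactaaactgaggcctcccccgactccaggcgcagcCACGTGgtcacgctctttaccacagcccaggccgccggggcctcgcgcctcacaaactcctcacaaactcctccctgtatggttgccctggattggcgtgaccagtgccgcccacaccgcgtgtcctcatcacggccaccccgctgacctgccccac
Stk31: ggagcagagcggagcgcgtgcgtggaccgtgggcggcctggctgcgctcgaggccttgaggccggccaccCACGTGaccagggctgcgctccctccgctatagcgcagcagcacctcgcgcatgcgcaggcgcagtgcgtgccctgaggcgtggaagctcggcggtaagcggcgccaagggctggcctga
Ccne2: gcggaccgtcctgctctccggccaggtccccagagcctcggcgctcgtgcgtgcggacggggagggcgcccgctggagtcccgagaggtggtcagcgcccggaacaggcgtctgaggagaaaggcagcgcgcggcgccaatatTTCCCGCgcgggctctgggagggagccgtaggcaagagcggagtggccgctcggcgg
Odc1: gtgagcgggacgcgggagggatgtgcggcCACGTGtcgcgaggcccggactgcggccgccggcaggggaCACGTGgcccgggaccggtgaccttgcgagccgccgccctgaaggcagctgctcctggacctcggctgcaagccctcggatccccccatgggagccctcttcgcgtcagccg
Hoxd13: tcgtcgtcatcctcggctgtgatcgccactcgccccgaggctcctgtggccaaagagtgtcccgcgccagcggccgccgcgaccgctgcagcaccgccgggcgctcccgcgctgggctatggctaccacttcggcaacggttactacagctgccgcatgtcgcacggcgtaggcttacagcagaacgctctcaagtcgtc

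The number of PCGF6 peaks, their width and their score (the −log10 p-value of the peak caller, at least 10 in every list) moved differently. Parental −OHT and RING1B WT +OHT cells had the longest lists, and RING1B I53S +OHT cells had fewer peaks than Parental +OHT cells. Peaks covered 6.87 Mb in Parental −OHT, 3.43 Mb in Parental +OHT, 7.89 Mb in RING1B WT +OHT and 1.71 Mb in RING1B I53S +OHT cells. The median width was 748, 640, 844 and 637 bp in this order, so that the lists from cells without active RING1B held the narrower peaks, with nearly the same distribution of widths. Peaks of at least 2 kb numbered 221, 35, 671 and 20. The median score was 17.4, 17.6, 21.2 and 16.6, which differed less than the number of peaks did. Among strong peaks, those with a score of at least 50, there were 750, 561, 1205 and 220, so the loss from Parental −OHT to Parental +OHT was smaller among strong peaks than over the whole list. The highest score, at the peak near Fbxo46 in every library, was 812.1, 772.1, 629.9 and 409.9.

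**Figure D1:**
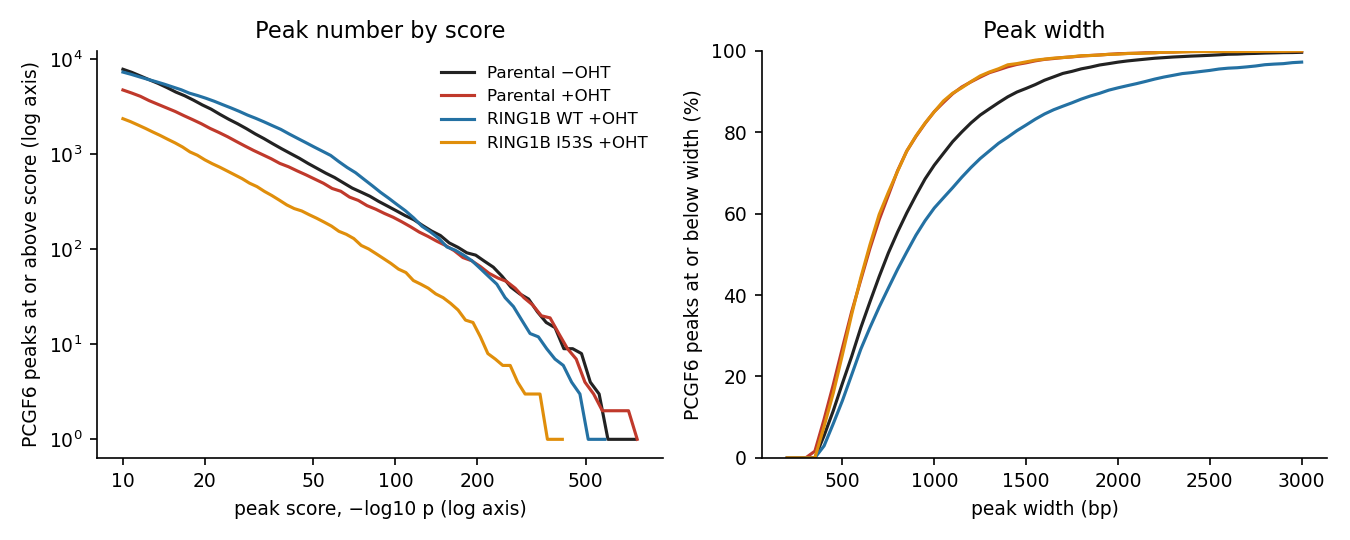
Left, number of PCGF6 peaks at or above each peak score (−log10 p-value, both axes logarithmic); right, cumulative share of PCGF6 peaks by width in bp. One line per library, 1 library per condition: RING1B WT +OHT has the widest peaks (median 844 bp), and the width curves of Parental +OHT (640 bp) and RING1B I53S +OHT (637 bp) lie on top of each other.

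Of the 7882 PCGF6 peaks of Parental −OHT cells, 49.1% (95% interval 47.98 to 50.19) were overlapped by a peak in Parental +OHT, 72.8% (71.8 to 73.7) in RING1B WT +OHT and 28.4% (27.4 to 29.4) in RING1B I53S +OHT cells. The short RING1B I53S list was nearly contained in the others, with 94.8% of its peaks overlapped in Parental −OHT, 89.3% in Parental +OHT and 92.9% in RING1B WT +OHT. Of the Parental +OHT list 81.6% lay on Parental −OHT peaks. The lists differ in length, and its part in these shares was not tested. When the 2377 highest peaks of every library were compared, the set of Parental −OHT peaks was also cut to its strongest. The shares were then 65.2% in Parental +OHT, 62.0% in RING1B WT +OHT and 65.3% in RING1B I53S +OHT, which no longer ranks RING1B WT first. Retention rose with the Parental −OHT score, from 19.5% in the lowest quartile to 91.0% in the highest for Parental +OHT, from 45.5% to 98.6% for RING1B WT and from 5.03% to 72.0% for RING1B I53S.

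PCGF6 sites also divided by the presence of PCGF2, the subunit of canonical PRC1. PCGF2 peaks of Parental −OHT cells lay on 2976 of the 7882 PCGF6 peaks (37.8%), and these were wider, with a median of 961 bp against 657 bp for the other 4906, at a similar median score of 18.1 against 16.9. In RING1B WT +OHT cells 94.4% (93.5 to 95.2) of the PCGF2-bound sites kept a PCGF6 peak, against 59.6% (58.2 to 61.0) of sites without PCGF2, a difference of 34.8 percentage points (33.2 to 36.4). In Parental +OHT cells the order was turned, with 40.2% (38.5 to 42.0) against 54.5% (53.1 to 55.9), a difference of −14.2 points (−16.48 to −11.99). In RING1B I53S +OHT cells the shares were 28.6% (27 to 30.25) and 28.25% (27.01 to 29.53), and the interval of the difference ran from −1.7 to 2.41 points. With a minimum score of 20 in both lists, the RING1B I53S difference was −4.58 points (−7.58 to −1.51), and with H2AK119ub1 peaks in place of PCGF2 the Parental +OHT difference was 2.14 points (−0.12 to 4.4), and the RING1B I53S difference 11.28 points (9.21 to 13.36), so both contrasts depend on the definition. Between the 2 transgenic lines the classes did separate. Peaks with PCGF2 numbered 3846 in RING1B WT and 868 in RING1B I53S +OHT cells, and peaks without it 3511 and 1509.

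Within quartiles of the Parental −OHT score the pattern by PCGF2 stayed. In the second quartile 19.3% of PCGF2-bound and 41.5% of other peaks were found in Parental +OHT cells. The same quartile gave 93.6% and 45.0% in RING1B WT, and 11.97% and 12.51% in RING1B I53S cells. In the lowest quartile RING1B WT cells kept 83.91% of the PCGF2-bound and 26.96% of the other sites. At the highest quartile the classes came close in each library, between 87.5% and 93.1% for Parental +OHT, 99.9% and 97.8% for RING1B WT and 71.5% and 72.4% for RING1B I53S.

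**Figure D2:**
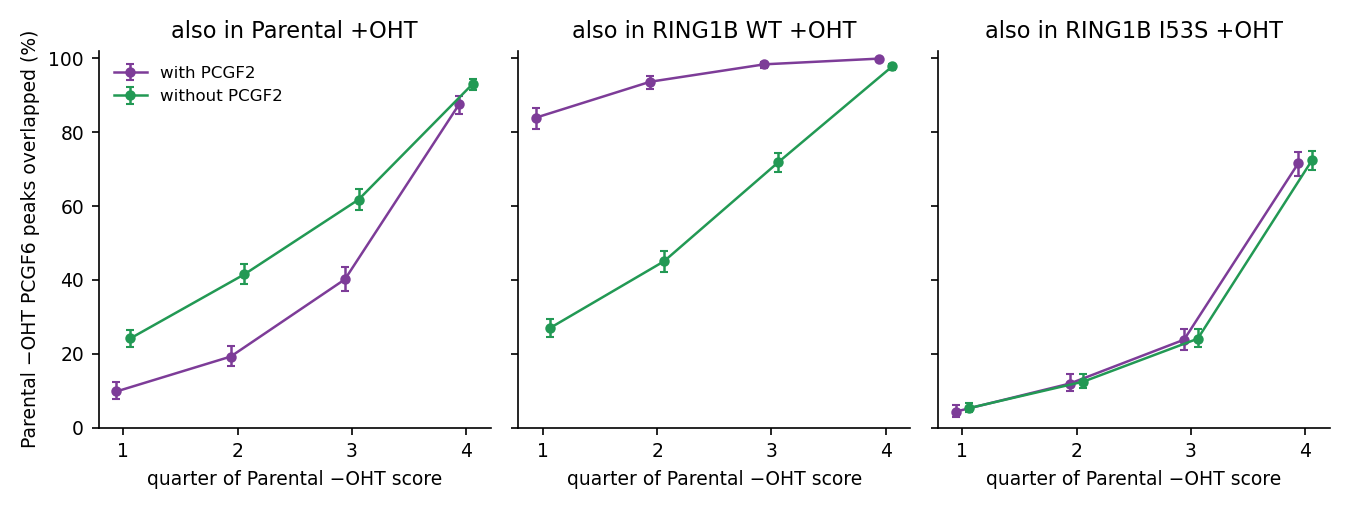
Share of Parental −OHT PCGF6 peaks (%) overlapped by a PCGF6 peak of each other library, by quartile of the Parental −OHT score (1 lowest, 4 highest). Points are shares of peaks with PCGF2 (purple) and without (green), bars are 95% Wilson intervals over peaks: the classes separate in opposite directions in Parental +OHT (40.2% against 54.5% overall) and RING1B WT +OHT (94.4% against 59.6%) and lie on each other in RING1B I53S +OHT (28.6% against 28.3%).

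The scores of shared peaks moved in the same directions. From Parental −OHT to RING1B WT +OHT the median log2 ratio of scores was 0.62 at the 2701 shared sites with PCGF2 and −0.22 at the 2911 without. From Parental −OHT to Parental +OHT it was −0.56 at 1193 sites with PCGF2 and −0.17 at 2666 without. From Parental −OHT to RING1B I53S +OHT it was −0.95 and −0.87, close to each other, and from RING1B WT +OHT to RING1B I53S +OHT it was −1.56 at sites with PCGF2 and −0.68 at sites without. A score depends on a library's depth, so the classes are best compared within a pair of libraries.

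Merging the 4 lists gave 10184 regions. The largest pattern, 2110 regions (20.7%), was found in Parental −OHT and RING1B WT +OHT cells and in neither of the others, and 65.9% of these regions held PCGF2. Regions present in all 4 libraries numbered 1947 (19.12%), of which 36.4% held PCGF2. A further 1519 were found in RING1B WT +OHT only, 71.6% with PCGF2, and 1598 in Parental −OHT only, 9.64% with PCGF2. Of the 633 regions found in Parental +OHT only, 2.21% held PCGF2, 6.79% H3K27me3 and 6.32% H2AK119ub1, while 76.3% lay at promoters.

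Other Polycomb proteins and marks divided PCGF6 sites along the same line in Parental −OHT cells. RING1B peaks lay on 95.3% (94.5 to 96.0) of PCGF6 sites with PCGF2 and on 8.54% (7.79 to 9.36) of those without. CBX7, the canonical reader, lay on 92.4% and 2.51%, H3K27me3 on 93.2% and 14.4%, the PRC2 subunit SUZ12 on 99.5% and 25.6%, and H2AK119ub1 on 70.5% and 20.4%. RYBP, a partner of PCGF6 in variant PRC1, was the protein least tied to PCGF2 here, on 50.9% of sites with and 21.1% of sites without it. Seen from the other lists, 85.5% of the 2989 RYBP peaks held PCGF6, against 53.2% of the 5186 PCGF2 peaks.

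PCGF6 peaks were still called in Parental +OHT cells where few peaks of other PRC1 proteins were. In Parental +OHT cells RING1B lay on 0.86%, RYBP on 0.86% and PCGF2 on 0.734% of the 4767 PCGF6 peaks, whose own lists had shrunk to 690, 61 and 89 peaks. The RYBP and CBX7 libraries outside Parental −OHT are labelled by 72 h alone and were read as the +OHT time point. H3K27me3 lay on 17.6% and SUZ12 on 29.8%. H2AK119ub1 peaks lay on 35.7%, against 39.3% in Parental −OHT cells, while that list went from 12648 to 5450 peaks. A called peak does not give the level of the mark, which the paper reports as lost after OHT. In RING1B I53S +OHT cells RING1B lay on 7.49%, PCGF2 on 8.58%, RYBP on 18.7% and CBX7 on 0.841% of the 2377 PCGF6 peaks. In RING1B WT +OHT cells the shares for RING1B, PCGF2, RYBP and CBX7 were 44.4%, 43.5%, 14.8% and 33.9%. The numbers of peaks differ so much between antibodies that a missing peak says only that none passed the peak caller's threshold.

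PCGF6 was a promoter protein in all 4 lists, with 77.4% (76.5 to 78.4) of Parental −OHT, 80.03% (78.87 to 81.14) of Parental +OHT, 81.6% (80.7 to 82.4) of RING1B WT and 82.0% (80.4 to 83.5) of RING1B I53S peaks within 2.5 kb of an annotated start site. Genes with such a promoter peak numbered 7657, 5062, 7336 and 2659, of which 5778, 3936, 5557 and 2023 were protein-coding among 21923, or 26.4%, 17.95%, 25.35% and 9.23% of them, the shares against which counts in the gene lists below can be read. A promoter peak in all 4 libraries was found at 2240 genes. After Fbxo46 the highest promoter scores of Parental −OHT cells belonged to Cops7a, a subunit of the COP9 signalosome, to the shared peak of Mepce and Zcwpw1, and to Ddx4. Cops7a scored 578.2, 403.1, 339.6 and 143.0 from Parental −OHT to RING1B I53S +OHT. The peak shared by Mepce, which caps 7SK RNA, and Zcwpw1, a histone reader of meiotic cells, scored 527.2, 544.6, 405.4 and 268.5. These 2 genes start side by side, so the peak cannot be given to either.

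Promoters bound in Parental −OHT and RING1B WT +OHT cells alone included Mpp5 (65.9 and 49.8), a scaffold of epithelial polarity, Flvcr1 (56.7 and 25.5), a heme exporter, and Prickle1 (47.5 and 53.2), a planar polarity gene. The strongest promoter peaks of RING1B WT +OHT cells alone were at Gata5 (87.4), near Mir196b (77.9) and at Foxi3 (72.0), a forkhead gene. Gata5, an endoderm and heart factor, shares its peak with the antisense gene Gata5os. The centre of the peak near Mir196b lay 3404 bp from its start, in the body of another annotated gene. That peak cannot be given to Mir196b. Each of Gata5, Mir196b and Foxi3 held PCGF2, RING1B, CBX7 and H3K27me3 peaks in Parental −OHT cells. In both groups 1 or 2 further genes known by clone names alone ranked among the first 5 and are not described.

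Germline and meiosis genes carried strong PCGF6 peaks in all 4 libraries. Of the 31 genes listed, 29 had a promoter peak in Parental −OHT, 29 in Parental +OHT, 30 in RING1B WT +OHT and 27 in RING1B I53S +OHT cells, and 27 had one in all 4. Of all protein-coding genes 26.4%, 17.95%, 25.35% and 9.23% had one, in the order of the libraries. The median score of the germline genes was 179.7, 151.7, 119.4 and 81.4, against 18.7, 18.6, 23.6 and 16.9 over all genes with a promoter peak. Ddx4 scored 517.6, 442.9, 379.5 and 218.0. Stag3, a meiotic cohesin subunit, scored 407.3, 406.3, 283.6 and 206.0. Sycp2 scored 378.4, 395.1, 234.0 and 161.7, and Mael, a piRNA pathway gene, 258.3, 281.0, 179.6 and 88.9. From Parental −OHT to RING1B I53S +OHT all 27 shared genes had a lower score (median log2 ratio −1.45, range −2.27 to −0.43). Over all genes with a promoter peak in both, 2256 of 2532 were lower (median −0.91). To Parental +OHT 16 germline genes were lower and 13 higher, against 2702 lower and 1503 higher over all genes. Polycomb proteins and marks were uneven at the germline promoters in Parental −OHT cells. Of canonical PRC1, PCGF2 lay on 6 of the 31 and CBX7 on 5. RING1B lay on 23, RYBP on 26, H3K27me3 on 24 and H2AK119ub1 on 19. The genes without a peak in Parental −OHT cells were Meiob, at which none of the 4 libraries had one, and Stra8, with 18.4 in RING1B WT +OHT cells alone.

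Developmental regulators differed from germline genes in both their marks and their scores. All 34 listed genes had PCGF2, RING1B, CBX7, SUZ12, H3K27me3 and H2AK119ub1 peaks at their promoters in Parental −OHT cells. PCGF6 promoter peaks were found at 31 in Parental −OHT, 12 in Parental +OHT, 34 in RING1B WT +OHT and 10 in RING1B I53S +OHT cells, with median scores of 18.7, 13.1, 68.3 and 13.5. Of all protein-coding genes 26.4%, 17.95%, 25.35% and 9.23% had such a peak, in the same order. The gain in RING1B WT +OHT cells was shared by every developmental regulator with a peak in both. All 31 scored higher than in Parental −OHT cells, by a median log2 ratio of 1.89 (range 0.56 to 2.62). The median was 0.08 over all 5994 genes with a promoter peak in both, and 0.62 over the 2701 shared sites with PCGF2. Sox9, a factor of cartilage and gonad, went from 32.5 to 144.1, with 10.9 in Parental +OHT and 13.5 in RING1B I53S +OHT cells. Cdx2, the trophectoderm and gut factor, scored 28.0, 12.8, 115.1 and 10.8 in the usual order. Hoxd13 scored 32.8 in Parental −OHT, 16.7 in Parental +OHT and 109.9 in RING1B WT +OHT cells, with no peak in RING1B I53S +OHT cells. Olig2, a factor of oligodendrocytes and motor neurons, scored 25.1, 11.7, 127.5 and 23.6.

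**Figure D3:**
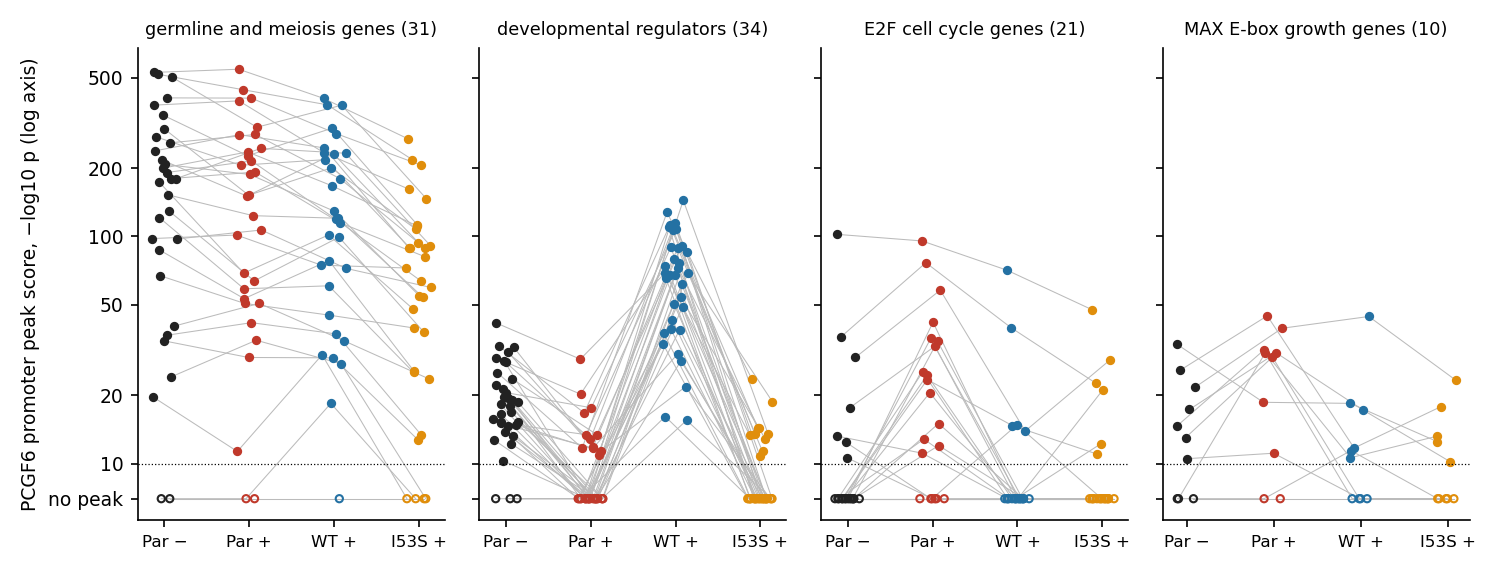
PCGF6 promoter peak score (−log10 p-value, logarithmic axis) of each gene of 4 lists in the 4 libraries (Par −, Parental −OHT; Par +, Parental +OHT; WT + and I53S +, RING1B WT and RING1B I53S +OHT). Points are genes, grey lines join a gene, open circles at the bottom have no peak and the dotted line is the threshold of 10: germline genes stay high (median 179.7 to 81.4), developmental regulators rise in RING1B WT +OHT (median 68.3), and more E2F genes have a peak in Parental +OHT (15 of 21) than elsewhere.

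Cell cycle genes known as E2F targets more often had a PCGF6 peak in Parental +OHT cells than in the other libraries. Of 21 such genes, 7 had a promoter peak in Parental −OHT, 15 in Parental +OHT, 5 in RING1B WT +OHT and 6 in RING1B I53S +OHT cells, although the Parental +OHT list was shorter than that of Parental −OHT. Of all protein-coding genes 26.4%, 17.95%, 25.35% and 9.23% had one, in the same order. Ccne2 had a peak in every library, with scores of 102.1, 95.5, 71.0 and 47.6. Rbl1, the pocket protein p107, scored 36.1, 76.6, 39.7 and 22.6, and Mcm3, a subunit of the replicative helicase, 29.3, 58.0, 13.9 and 28.6. Pcna, the sliding clamp, had no peak in Parental −OHT and RING1B WT +OHT cells and scored 41.9 in Parental +OHT and 21.1 in RING1B I53S +OHT cells. Cdt1, the replication licensing factor, showed the same with 35.6 and 12.2. With a minimum score of 20 the counts were 3, 11, 2 and 4, in the same order. Growth genes known to be bound by MYC and MAX behaved less distinctly, with peaks at 7, 8, 6 and 5 of 10, but 6 of the 7 shared by the Parental libraries scored higher with OHT (median log2 ratio 0.83). Npm1, the nucleolar chaperone, scored 25.8, 44.7, 11.7 and 17.8. Over all 4205 genes with a promoter peak in both Parental libraries the median ratio was −0.25.

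Some genes of PRC1.6 itself had strong PCGF6 promoter peaks. Of 14 subunit genes, 10 had a peak in Parental −OHT, 7 in Parental +OHT, 9 in RING1B WT +OHT and 5 in RING1B I53S +OHT cells. The shares of all protein-coding genes were 26.4%, 17.95%, 25.35% and 9.23%. Hdac2 scored 512.4, 416.5, 487.5 and 234.5, E2f6 scored 407.7, 310.7, 284.7 and 165.0, and Mga 199.4, 130.9, 114.2 and 59.7. Pcgf6 had weak peaks of 18.8, 13.9 and 14.3 and none in RING1B I53S +OHT cells. None of the 14 was called higher or lower in RNA, by the fold and false discovery rate thresholds given below, in any comparison. Pcgf6 RNA was 31.6 and 33.4 CPM in Parental −OHT, 24.1 and 21.6 in Parental +OHT, 23.6 and 26.5 in RING1B WT +OHT, and 38.2 and 21.9 in RING1B I53S +OHT cells. The groups of the Parental line did not overlap (log2 fold change −0.51 ± 0.24 SE, edgeR adjusted p = 0.108), while the RING1B I53S +OHT values lay above and below those of 25.9 and 27.2 without OHT. Of 12 other PRC1 subunit genes, 6, 3, 6 and 1 had a PCGF6 promoter peak. Pcgf2 had one in every library, with 30.8, 28.6, 32.8 and 14.97.

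Short sequence motifs followed the same division. An E-box was present in the central 300 bases of 18.03% (17.2 to 18.9) of Parental −OHT PCGF6 peaks and an E2F site in 14.3% (13.6 to 15.1), against 7.15% and 6.0% of 32851 RefSeq promoters of the same length. PCGF6 peaks are richer in CpG than those promoters, with a median of 24 against 7 CpG dinucleotides, and the part of this base composition in the shares was not tested. The E-box was the motif that separated the classes: 22.6% (21.4 to 23.8) of PCGF6 peaks without PCGF2 held one, 10.6% (9.5 to 11.7) of those with PCGF2, and 3.87% (3.18 to 4.72) of PCGF2 peaks without PCGF6. E2F sites differed less, at 14.9%, 13.4% and 9.23%. Around peak centres the E-box reached 8.89% of peaks per 100-base bin at sites without PCGF2, from 1.45% near 1 kb away, and 3.83% at sites with PCGF2.

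Both motifs were more frequent in the libraries from cells without active RING1B. E-boxes were found in 24.01% of Parental +OHT and 24.04% of RING1B I53S peaks against 14.9% in RING1B WT, and E2F sites in 19.4% and 21.1% against 14.4%. Among Parental −OHT peaks, those overlapped in all 3 other libraries held an E-box in 21.03% and an E2F site in 18.1%. Those overlapped in RING1B WT alone gave 10.4% and 12.3%, and the 1598 overlapped in no other library 21.15% and 9.07%. Within sites lacking PCGF2 the shares were 24.4% and 19.6% for all 3 and 16.7% and 11.8% for RING1B WT alone. For no other library they were 22.3% and 9.07%. The E-box was thus about as frequent in peaks found in no other library as in those found in all. Regions found in Parental +OHT alone held an E-box in 24.2% and an E2F site in 21.01%, and those in RING1B WT alone 7.70% and 11.8%. In the gene lists, an E2F site was found at 6 of 7 E2F cell cycle promoters with a peak in Parental −OHT cells and at 12 of 15 in Parental +OHT cells, Ccne2, printed above, among them. An E-box was found at 4 of 7 growth genes. Of the 29 germline promoters 6 held an E-box, 8 an E2F site and 12 either, and of the 31 developmental promoters 4, 2 and 6.

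**Figure D4:**
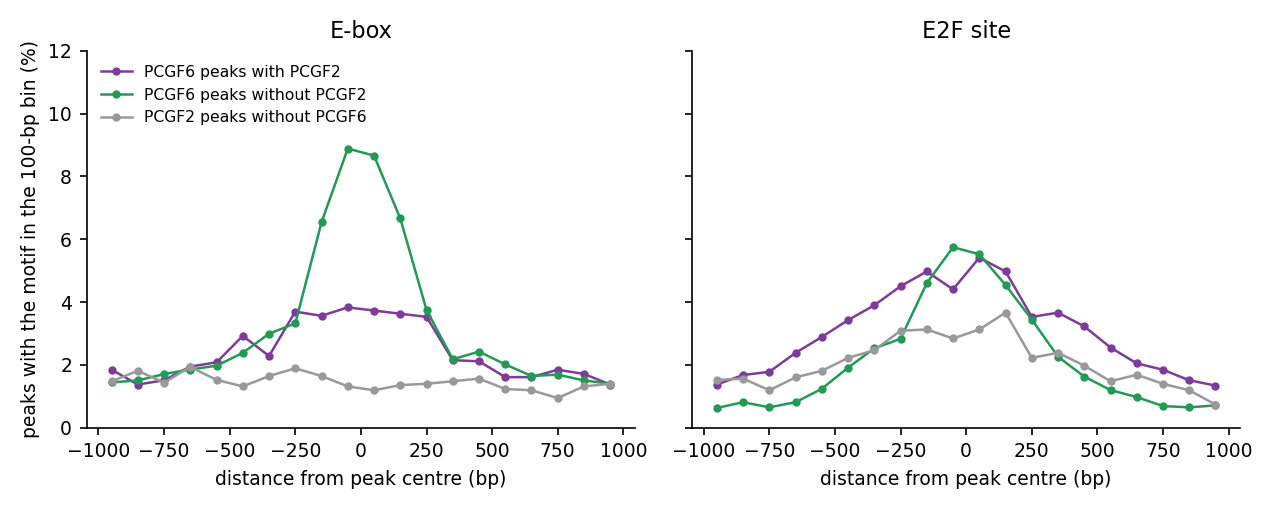
Share of peaks (%) with an E-box (left) or an E2F site (right) in each 100-bp bin by distance from the peak centre (bp), for Parental −OHT PCGF6 peaks with PCGF2 (2974), without PCGF2 (4906), and PCGF2 peaks without PCGF6 (2427). The E-box stands highest at the centre of PCGF6 peaks without PCGF2 (8.89%) and is flat in PCGF2 peaks without PCGF6, while the E2F site is most frequent near the centre in all 3 sets.

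In RNA, genes with a PCGF6 promoter peak in Parental −OHT cells were called according to whether they also held PCGF2. Calls needed a log2 fold change of 1.5 or more in either direction with a false discovery rate under 0.05, from edgeR over 18154 genes, and 5736 of the 7657 PCGF6 genes passed the filter on low counts. With OHT, 1336 of them rose and 52 fell in Parental cells (23.3% and 0.907%), against 15.1% higher and 1.83% lower over all genes tested. In RING1B I53S cells 1201 rose and 26 fell, against 12.8% and 1.04%. In RING1B WT cells 129 rose and 3 fell, against 1.34% and 0.0386%. The 129 became 12 when RING1B WT −OHT replicate 2 was left out, and 15 when RING1B WT +OHT replicate 2 was. The difference between the OHT effects in Parental and RING1B WT cells was not tested.

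Genes with both proteins made up most of these calls. Of 2302 tested genes with PCGF6 and PCGF2, 1165 (50.6%) rose in Parental and 1063 (46.2%) in RING1B I53S cells with OHT, with median log2 fold changes of 1.67 and 1.46. The 1145 genes with PCGF2 and no PCGF6 gave 567 (49.5%) and 503 (43.9%), and medians of 1.66 and 1.47. The 3434 genes with PCGF6 and no PCGF2 gave 171 (4.98%) and 138 (4.02%), and medians of −0.089 and −0.083, below the background of higher calls. Their RNA level was higher, with a median of 30.3 CPM in Parental −OHT cells against 2.28 for genes with both. The shares were close whether or not PCGF6 was found in the other libraries: genes bound in all 4 libraries rose in Parental cells in 50.3% of 618 cases with PCGF2 and 5.77% of 1126 without, and genes bound in Parental −OHT and RING1B WT +OHT alone in 54.4% of 1055 and 5.82% of 464. These are counts over genes and carry no test of their own.

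**Figure D5:**
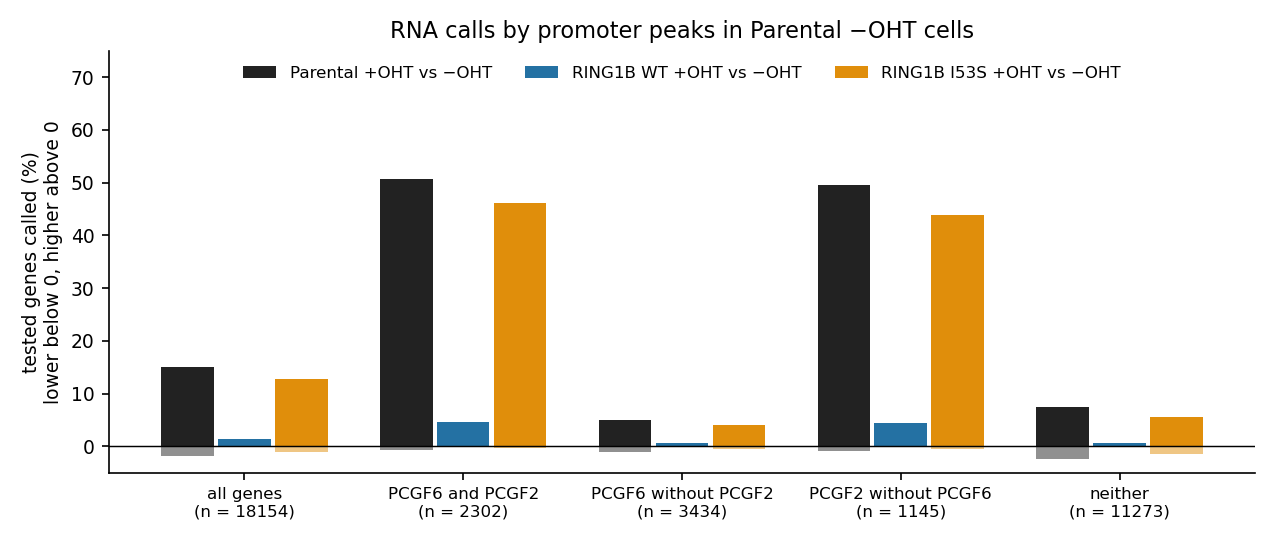
Share of tested genes called higher (above 0) and lower (below 0, paler) with OHT in each line, for all genes and for genes grouped by PCGF6 and PCGF2 promoter peaks of Parental −OHT cells (n, tested genes). Bars are counts over genes from 2 replicates per group and have no error of their own: classes with PCGF2 reach 50.6% and 49.5% higher in Parental cells, PCGF6 without PCGF2 4.98%.

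With OHT in both transgenic lines, RING1B I53S against RING1B WT gave 642 higher and 15 lower PCGF6 genes (11.2% and 0.262%), against 6.02% and 0.6% of all tested genes. Of the 642, 605 held PCGF2. Without RING1B WT +OHT replicate 1 the counts were 197 and 179. The OHT effect itself differed between the lines, as an interaction term, at 29 PCGF6 genes with a larger effect in RING1B I53S cells and 2 with a lower one, against 0.209% and 0.138% of all genes, and all 29 held PCGF2. These comparisons share libraries, so their values stand side by side and are not independent.

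Most tested germline genes rose with OHT in Parental and RING1B I53S cells, and most listed ones still had a PCGF6 promoter peak there. Of 30 tested genes, 23 rose in Parental, 20 in RING1B I53S and 10 in RING1B WT cells, against 15.1%, 12.8% and 1.34% of all genes, and none fell. The count of 10 rested on single libraries, and was 1 when RING1B WT +OHT replicate 2 was left out and 2 when RING1B WT −OHT replicate 2 was. The median log2 fold change was 2.35, 1.84 and 1.31, against 0.027, 0.014 and 0.022 over all genes. The bulk counts do not tell more cells expressing a gene from more RNA per cell. Ddx4 gave 14.1 and 25.3 CPM in Parental −OHT and 91.6 and 107.2 in Parental +OHT cells. It gave 18.6 and 22.1 in RING1B WT −OHT, 30.8 and 50.1 in RING1B WT +OHT, 14.6 and 22.7 in RING1B I53S −OHT, and 57.8 and 82.0 in RING1B I53S +OHT cells. The +OHT libraries lay above the −OHT libraries in each line, and the log2 fold change was 2.35 ± 0.29 (adjusted p = 6.01e-06) in Parental, 1.91 ± 0.29 (7.12e-05) in RING1B I53S and 0.99 ± 0.29 (0.0784) in RING1B WT cells.

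Tdrd1, a Tudor protein of the piRNA pathway, was the listed germline gene with the largest fitted fold change in Parental cells. Its level was 0.163 and 0.742 CPM in Parental −OHT, 27.8 and 25.4 in Parental +OHT, 2.62 and 5.23 in RING1B WT +OHT and 19.8 and 25.1 in RING1B I53S +OHT cells. The +OHT groups did not overlap between RING1B WT and RING1B I53S cells, and the fold change between them was 2.53 ± 0.36 (adjusted p = 0.000162). By the interaction term, the OHT effect was called different between these lines at 0 of the 30 tested germline genes, Tdrd1 included. Mael went from 11.3 and 12.4 to 97.0 and 105.4 CPM in Parental cells (3.1 ± 0.26, adjusted p = 7.37e-08). Some of the most strongly bound promoters gave no call. Stag3 gave 20.6 and 19.7 CPM without and 24.7 and 28.6 with OHT in Parental cells (0.4 ± 0.23, adjusted p = 0.189). Tex19.1, a placenta and germ cell gene with a score of 502.0, gave 332.7 and 380.4, and 630.5 and 807.8 CPM (1.01 ± 0.28, adjusted p = 0.00867), under the fold threshold. Fbxo46, near the peak with the highest score of all, gave 26.2 and 17.2, and 27.8 and 23.0 CPM (0.22 ± 0.25, adjusted p = 0.53), in overlapping groups. That peak cannot be given to Fbxo46 alone.

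Developmental regulators rose with OHT in Parental and RING1B I53S cells. Of 30 tested genes, 25 rose in Parental, 25 in RING1B I53S and 5 in RING1B WT cells, against 15.1%, 12.8% and 1.34% of all genes. The 5 became 0 when RING1B WT −OHT replicate 2 was left out, and 2 when RING1B WT +OHT replicate 2 was. With OHT, 15 were higher in RING1B I53S than in RING1B WT cells, against 6.02% of all genes, and 4 were without RING1B WT +OHT replicate 1. By the interaction term, the OHT effect was called larger in RING1B I53S than in RING1B WT cells at 2 of the 30, against 0.209% of all genes. The median log2 fold change with OHT was 4.70 in Parental, 4.48 in RING1B I53S and 1.90 in RING1B WT cells. Sox9 gave 0.326 and 0.124 CPM in Parental −OHT and 19.5 and 22.3 in Parental +OHT cells, 0.856 and 0 in RING1B WT −OHT and 0.403 and 1.25 in RING1B WT +OHT cells, and 0.155 and 0 in RING1B I53S −OHT and 14.1 and 17.1 in RING1B I53S +OHT cells. The RING1B WT groups overlapped and the others did not. Its fitted log2 fold changes were 6.35 ± 0.65, 0.85 ± 0.83 and 7.33 ± 0.74 in Parental, RING1B WT and RING1B I53S cells, from counts close to 0 without OHT, so their size depends on the prior count of the fit. Hoxd13, whose window is printed above, gave 0.326 and 0 CPM in Parental −OHT, 6.58 and 6.04 in Parental +OHT, 0.302 and 1.37 in RING1B WT +OHT and 6.92 and 4.13 in RING1B I53S +OHT cells.

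The PCGF6 genes with the lowest adjusted p for a rise were, in Parental cells, Esx1, Gata3, Ccnd2, Crabp1 and Hand1, and in RING1B I53S cells Gata3, Esx1, Ccnd2, Col4a1 and Adra2b. All held PCGF2, with modest PCGF6 scores of 12.2 to 26.8 in Parental −OHT cells. Ccnd2, cyclin D2, went from 2.45 and 4.33 to 194.5 and 166.1 CPM in Parental cells, from 2.57 and 5.27 to 13.4 and 23.7 in RING1B WT cells, and from 2.40 and 3.07 to 86.3 and 86.5 in RING1B I53S cells. With OHT the RING1B WT libraries lay between the untreated and the other treated libraries. Gata3, a trophoblast and T cell factor, rose from 0.489 and 0.495 to 52.95 and 51.77 CPM in Parental cells (6.7 ± 0.36, adjusted p = 7.02e-10). Genes that fell were fewer and had other promoters: Lefty2, a Nodal antagonist, Kdm3a, an H3K9 demethylase, Sall1 and Pga5 held no PCGF2, and Etv5 and Dnajc6 did. Lefty2 fell from 1404 and 1397 to 118.5 and 162.2 CPM in Parental cells (−3.32 ± 0.22, adjusted p = 4.83e-09) and from 956.0 and 1166 to 83.8 and 131.2 in RING1B I53S cells. Kdm3a, with PCGF6 scores of 97.1, 150.5, 74.4 and 54.9, fell from 177.0 and 199.0 to 49.9 and 54.0 CPM in Parental cells (−1.86 ± 0.18, adjusted p = 3.02e-07).

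Cell cycle and growth genes gave no call in any comparison, with a median log2 fold change of −0.59 in Parental, −0.27 in RING1B WT and −0.59 in RING1B I53S cells for the 21 E2F genes. Mcm3 gave 473.8 and 470.3 CPM in Parental −OHT and 219.4 and 229.7 in Parental +OHT cells (−1.07 ± 0.19, adjusted p = 0.000199), in groups that did not overlap but under the fold threshold. Pcna gave 235.7 and 283.6, and 153.6 and 149.6 CPM (−0.78 ± 0.18, adjusted p = 0.00239). Of the other PRC1 genes, Cbx8, a CBX paralog of canonical PRC1, rose from 1.47 and 0.865 to 26.2 and 31.1 CPM in Parental cells (4.55 ± 0.45, adjusted p = 4.21e-07), and Pcgf5, Phc2 and Bcorl1 rose as well, while Phc1 fell. Bcor, at 1.53 ± 0.19, was called close to the fold threshold and lost the call without Parental +OHT replicate 2, Parental −OHT replicate 1 or RING1B WT −OHT replicate 2. Neither Bcorl1 nor Phc1 had a PCGF6 peak.

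Markers of cell state moved with these calls, and their part in the results was not tested. The summed level of the 11 pluripotency markers was 6237 and 7696 CPM in Parental −OHT and 3391 and 3445 in Parental +OHT cells, 5980 and 6170 in RING1B WT +OHT, and 3693 and 3623 in RING1B I53S +OHT cells. In Parental cells 5 of the 11 fell and in RING1B I53S cells 4, against 1.83% and 1.04% of all tested genes. None fell in RING1B WT cells, where 0.0386% of all tested genes did. The 6 fibroblast markers summed to 10.1 to 15.5 CPM in the −OHT libraries, 45.7 and 48.4 in Parental +OHT, 20.6 and 20.7 in RING1B WT +OHT, and 39.6 and 49.9 in RING1B I53S +OHT cells, and 1 of them was at 0 in every library. Of the fibroblast markers 3 held a PCGF6 promoter peak in Parental −OHT cells.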

How the data were processed

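PCGF6 ChIP-seq peak lists of 4 libraries, 28 lists of 7 other antibodies in the same conditions and RNA-seq counts of 12 libraries were used. Per the study's methods, read pairs were placed by the authors on mm10 (with the fly genome for spiked-in histone marks) using Bowtie 1.2.2, multi-mapping and duplicate reads were dropped, and peaks were called per library in MACS2 2.1.1. An input named E14 as the control is known from the names of the deposited lists only. The deposited score of each peak is the −log10 p-value, at least 10, and moves with library depth, which is unknown. Numbers in the peak names have gaps, so the lists do not hold every called peak. The authors deposited raw counts per gene from STAR 2.7 and featureCounts without strand, so a gene and its antisense partner cannot be told apart. Their tables of comparisons hold fold changes and p-values and were not used.

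Peaks overlapped at 1 bp or more. A promoter lay within 2.5 kb of a GENCODE M21 start site on GRCm38, and sequences came from the RefSeq copy of that build. RNA was tested with edgeR 4.0.16 (quasi-likelihood, TMM, filterByExpr, Benjamini-Hochberg adjustment) over 12 libraries in R 4.3.3, at 8140106 to 12743460 counts per library. The scripts were tested on simulated data. The sample titles number the replicates and do not say of what kind they are. Alternatives included DESeq2 1.42.0, other filters, thresholds, peak classes and leaving out each replicate. The members, gene lists and tests were chosen with earlier results of these data known. Named genes were the list members with the highest PCGF6 scores in Parental −OHT cells, the 5 highest promoter scores of each occupancy pattern and the 5 called genes per direction with the lowest adjusted p; Tdrd1, Mael, Stk31, Odc1, Pcna, Cdt1, Olig2, Cdx2 and the PRC1 genes with RNA values were also singled out from the lists after their values were seen.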

Additional observations from a re-analysis of the deposited data

Results flagged for a closer look

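The OHT effect on RNA differed between the transgenic lines, by the interaction term of the edgeR fit, at some genes with a PCGF6 promoter peak. It was higher in RING1B I53S cells at 29 and lower at 2. These were 0.506% and 0.0349% of the tested PCGF6 genes, against 0.209% and 0.138% of all tested genes, so lower calls were below the background. The difference, RING1B I53S minus RING1B WT on the log2 scale, was 2.45 ± 0.37 for Esx1 (adjusted p = 0.00337), 3.33 ± 0.5 for Gata3 (0.00348), 2.75 ± 0.47 for Ccnd2 (0.00971), 2.9 ± 0.51 for Adra2b (0.0118) and 1.72 ± 0.33 for Col4a1 (0.018). For Sox9 it was 6.48 ± 1.34 (adjusted p = 0.0308), from counts near 0 without OHT, so its size depends on the prior count. Lefty2 gave −2.3 ± 0.29 (adjusted p = 0.000346) and Pga5, a pepsinogen gene, −2.89 ± 0.43 (0.00333). The pluripotency markers Tdgf1 and Prdm14, without a PCGF6 promoter peak, gave −2.37 ± 0.28 (adjusted p = 0.000131) and −1.61 ± 0.29 (0.0118). All of these rest on 2 libraries per group.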

How the results depend on the processing

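Peak numbers followed the score threshold. At a score of at least 20 they were 3210 in Parental −OHT, 2019 in Parental +OHT, 3949 in RING1B WT +OHT and 872 in RING1B I53S +OHT cells, and at 50 they were 750, 561, 1205 and 220. The shares of Parental −OHT peaks found in Parental +OHT, RING1B WT +OHT and RING1B I53S +OHT cells were 43.81%, 71.47% and 23.64% when 50% of the peak had to be covered, and 65.17%, 61.97% and 65.25% with equal numbers of top peaks. With a score of at least 20 the RING1B WT and RING1B I53S shares were 75.79% and 25.48%. Without chromosome 11 and the mitochondrial genome, an alternative chosen after seeing the data, the Parental +OHT and RING1B I53S shares were 47.03% and 26.55%. The difference between sites with and without PCGF2 was, in Parental +OHT cells, −11.18 points with H3K27me3 in place of PCGF2, −19.85 at 50% covered, −19.02 at a score of 20 and −17.27 with equal numbers, and it was reversed, at 2.14, with H2AK119ub1; the cause was not tested. In RING1B WT cells it was 32.77 with H3K27me3, 28.68 with H2AK119ub1, 27.37 at a score of 20 and 30.29 with equal numbers. In RING1B I53S cells it was 11.28 with H2AK119ub1, −4.18 at 50% covered, −4.58 at a score of 20 and −1.82 with equal numbers.

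Promoter shares were 72.38%, 75.27%, 76.47% and 77.24% within 1 kb and 71.1%, 74.32%, 75.34% and 76.23% for protein-coding start sites, in the order Parental −OHT, Parental +OHT, RING1B WT +OHT and RING1B I53S +OHT. By the peak centre they were 76.5% in Parental −OHT and 80.07% in RING1B WT cells. With a promoter peak score of at least 20, genes called higher and lower were 645 and 18 in Parental, 575 and 9 in RING1B I53S, and 313 and 6 in RING1B I53S against RING1B WT cells, with 68 higher in RING1B WT cells; of the higher genes 541, 495, 287 and 50 held PCGF2, and without PCGF2 104 rose in Parental and 80 in RING1B I53S cells. Without the fold threshold, lower calls were 562 in Parental, 22 in RING1B WT, 346 in RING1B I53S and 143 in RING1B I53S against RING1B WT cells, which then had 1005 higher, and genes without PCGF2 called higher were 424, 40, 319 and 123. Without the filter on low counts RING1B WT cells had 224 higher and 6 lower, 184 of the higher with PCGF2 and 40 without.

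Leaving out each replicate, RING1B WT cells gave 12 to 159 higher and 0 to 9 lower genes (9 to 131 higher with PCGF2, 1 to 29 without), lowest for higher genes without RING1B WT −OHT replicate 2 or RING1B WT +OHT replicate 2. RING1B I53S against RING1B WT gave 197 to 650 (179 to 612 with PCGF2, 18 to 39 without), lowest without RING1B WT +OHT replicate 1. Of 288 such values 264 were within 1.5 times the reported one, as were 149 of 192 under the other RNA alternatives. Of 192 calls of named genes 139 held under all 16 fits, but only 2 of 19 in RING1B WT cells. Replicate numbers are shared between groups with only 2 numbers, and the labels do not say that they mark a shared batch. Deviations of same-numbered samples correlated at 0.228 to 0.301 among −OHT groups, 0.134 to 0.181 among +OHT groups and 0.0627 to 0.198 within a line, a hint from the data and not the design. With the replicate block 1370 genes rose in Parental and 146 in RING1B WT cells, and all 44 values stayed within 1.5 times. One ChIP library per condition and its unknown depth limit every comparison of peak lists.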
